A study of Drosophila sechellia and Drosophila simulans with 8 samples.

Results

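The Osiris genes studied here are Osi2, Osi6, Osi7, Osi8, Osi9, Osi14, Osi15, Osi18, Osi19 and Osi20. They were found as the probe sets whose only gene symbol in the array's annotation is one of these names. Each of the 10 genes had 1 probe set, out of 24 Osiris genes and 11982 genes with a probe set of their own on the array. Expression was measured in bodies of adult females of Drosophila sechellia, a specialist on the acid-rich fruit of Morinda citrifolia, and of its generalist relative Drosophila simulans. Flies of both species either had or did not have a choice that involved octanoic and hexanoic acid, given as a blend. The 4 groups, sechellia choice, sechellia no choice, simulans choice and simulans no choice, have 2 arrays each, and all flies were reared at 25 °C on an agar, yeast and cornmeal medium. Strain, age and length of exposure are not given in the sources used here.

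Osiris genes form a family known only from insects, and in flies most of them sit side by side in a single cluster whose gene order is conserved. They encode proteins with a signal peptide, bound to membranes or secreted. In Drosophila melanogaster they are switched on mainly in epithelia that are laying down cuticle, and Osi9, Osi15 and Osi19 act in the maturing tracheal tubes. The cluster lies in a region linked to the resistance of D. sechellia to octanoic acid, and knockdown of Osi6, Osi7 or Osi8 in D. melanogaster has been reported to change survival on that acid.

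The values are linear probe-set signals, and array number limits their precision. The annotation gives D. melanogaster genes for the probes, so a species difference in RNA level and a species difference in the match of RNA to probe cannot be told apart here. Fewer cells of a type and less RNA per cell also cannot be told apart in whole bodies. The labels only number the arrays of a group, so the p-values rest on the spread between arrays, and that spread may be technical. Array 1 of sechellia choice stood apart: its median signal was 316.7, against 110.7 to 129.8 on the other 7, and its Pearson correlation with them was 0.674 to 0.72. Background was read from 24 Bacillus control probe sets, and here a gene is above background on an array where its signal exceeds all 24. The brightest control stood at 757.6 on that array and between 61.3 and 137.2 on the other 7. All 14 female fat body and eggshell or germline markers on the array were above background on the 3 other sechellia arrays and on the 4 simulans arrays, whereas 1 of 17 male reproductive markers was, in either species. Of 6 eye and head markers, 3 were above background on those sechellia arrays and 1 on the simulans arrays, and all 7 muscle markers were in both species.

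Osi6, Osi14, Osi15 and Osi20 were above background on all 4 simulans arrays, Osi19 on 3 of them and Osi18 on 1. Of the 40 readings of these 10 genes on sechellia arrays 1 was above background, that of Osi20 on array 2 of sechellia choice, against 20 of the 40 readings on simulans arrays. Osi6, Osi14 and Osi15 were above background on every simulans array and on no sechellia array, as were 0.282% of all 18769 probe sets that are not controls. By themselves, 46.7% of these probe sets were above background on all 4 simulans arrays, 20.4% on all 4 sechellia arrays and 45.7% on the 3 sechellia arrays other than array 1 of choice. Osi2, Osi7, Osi8 and Osi9 were above background on no array of either species.

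**Figure D1:**
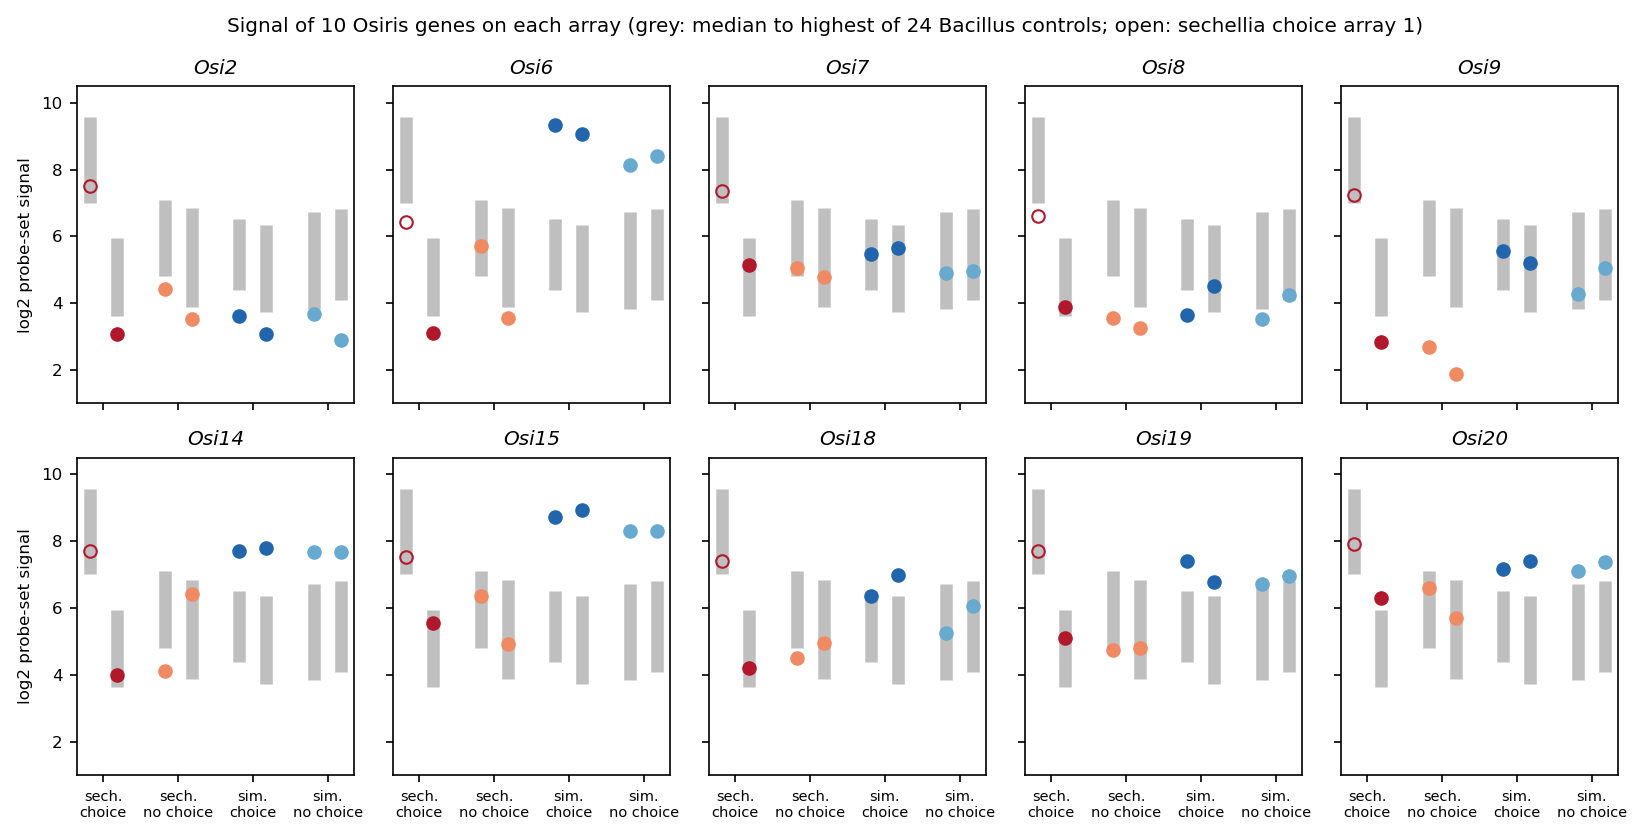
Log2 probe-set signal of the 10 Osiris genes (y axis) on each array of the 4 groups (x axis), with array 1 of each group left of array 2, sechellia in red and orange and simulans in dark and light blue. Grey bars run from the median to the highest of the 24 Bacillus controls of that array, and the open circle is array 1 of sechellia choice; Osi6, Osi14, Osi15 and Osi20 stand above the bars on all 4 simulans arrays.

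Osi6, a member tied to octanoic acid survival in D. melanogaster, showed the widest gap between the species of the 10. Its signal was 85.5 and 8.7 on arrays 1 and 2 of sechellia choice and 52.4 and 11.8 on those of sechellia no choice. On the simulans arrays it was 638.3 and 534.8 under choice and 284.5 and 339.9 under no choice. Every sechellia array lay below every simulans array, and on the array that stood apart only 3 of the 24 controls were below its 85.5. The log2 difference, sechellia minus simulans averaged over treatments, was -4.03 ± 0.77 (SE; limma adjusted p = 0.015) with 8 arrays and -4.86 ± 0.48 (adjusted p = 0.0001) with 7, that is, without array 1 of sechellia choice. Since all sechellia signals are at background, the size is only bounded: with each raised to the brightest control of its array, Osi6 was at least 4.86-fold lower in sechellia with 7 arrays and at least 2.59-fold lower with 8. This bound and those given below compare group means and make no allowance for the spread between arrays.

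Osi15, one of the tracheal members, differed in the same way. It had signals of 185.5 and 47.3 in sechellia choice and 81.5 and 30.2 in sechellia no choice, against 417.7 and 483.9 in simulans choice and 316.2 and 314 in simulans no choice. The species did not overlap on the 8 arrays. The log2 difference was -2.46 ± 0.50 (adjusted p = 0.02) with 8 arrays and -2.96 ± 0.33 (adjusted p = 0.0002) with 7, and the bound was at least 4.29-fold lower in sechellia with 7 arrays and at least 2.29-fold lower with 8. Osi6 and Osi15 are the 2 genes called with 8 arrays, at a Benjamini-Hochberg adjusted p below 0.05 over 13138 tested probe sets, of the 6 members bright enough to be tested; 5.46% of all tested probe sets were called lower in sechellia in that comparison. Neither was called when array 2 of sechellia no choice or any of the 4 simulans arrays was left out, with array 1 of sechellia choice kept. The log2 difference of Osi6 was then -3.5 to -4.1 (adjusted p = 0.071 to 0.089) and that of Osi15 -2.11 to -2.52 (adjusted p = 0.087 to 0.11).

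Osi14 had signals of 210.5 and 15.9 in sechellia choice and 17.4 and 86.3 in sechellia no choice, against 208.3 and 224.7 in simulans choice and 204.2 and 204.8 in simulans no choice. The 4 simulans signals lay close together and the sechellia ones were scattered, and only the array that stood apart reached the simulans range. Its log2 difference was -2.15 ± 0.85 (adjusted p = 0.17) with 8 arrays and -3.08 ± 0.52 (adjusted p = 0.002) with 7, and over background it was at least 1.28-fold lower in sechellia with 8 arrays and at least 2.4-fold lower with 7.

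Osi19, also a tracheal member, had signals of 207.4 and 34.2 in sechellia choice and 26.6 and 27.8 in sechellia no choice, against 168.8 and 110.2 in simulans choice and 105.5 and 123.9 in simulans no choice. Apart from array 1 of choice, the sechellia signals were all below the simulans ones. Its log2 difference was -1.38 ± 0.62 (adjusted p = 0.22) with 8 arrays and -2.03 ± 0.35 (adjusted p = 0.0022) with 7. No fold bound is given over both treatments, because the no choice signal of 105.5 was below 1 of the 24 controls.

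Osi20 had signals of 241.5 and 78.9 in sechellia choice and 97.7 and 52.2 in sechellia no choice, against 144.6 and 170.8 in simulans choice and 137.1 and 167.1 in simulans no choice. It had the smallest difference of the 6 tested members with 8 arrays and with 7, at log2 -0.64 ± 0.45 (adjusted p = 0.41) and -1.04 ± 0.29 (adjusted p = 0.025). Osi18 had 171 and 18.3 in sechellia choice and 22.4 and 30.8 in sechellia no choice, against 82.8 and 126 in simulans choice and 38.3 and 67.1 in simulans no choice. Its log2 difference was -0.91 ± 0.78 (adjusted p = 0.5) with 8 arrays and -1.71 ± 0.49 (adjusted p = 0.027) with 7, but only the 126 among its simulans signals was above background.

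With 7 arrays, the 6 tested members were thus called lower in sechellia, where 15.6% of the tested probe sets were. Passing the filter on dim probe sets took a geometric mean signal of 49.9 over the 8 arrays, which these 6 reached and Osi2, Osi7, Osi8 and Osi9 did not. Of the 6, Osi6, Osi14, Osi18 and Osi19 had a geometric mean below that level on the sechellia arrays and reached it only on the simulans arrays. For Osi18 the mean over the 8 arrays was 52.5, and the signal of 171 on array 1 of sechellia choice entered it. The filter therefore favoured members low in sechellia, and nothing is read from 6 of 6 against that share. Without that filter all 10 were tested, and 2 were called lower with 8 arrays, where 3.43% of 18769 probe sets were, and 7 with 7 arrays, where 10.3% were. The seventh was Osi9, which was at background on all 8 arrays, so that its call compares signals at background and shows no change of level. The median log2 difference of the 10 was -1.14 with 8 arrays and -1.87 with 7, against 0.34 and 0.09 over all 18769 probe sets. The 10 include Osi2, Osi7, Osi8 and Osi9, at background on every array, and were picked with such values known. No common direction is therefore read from these medians. On the array that stood apart dim signals were higher, and the signal of each of the 10 was higher there than on the other 3 sechellia arrays.

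Among the 4 dim members, Osi9, a tracheal member, had signals of 150 and 7.1 in sechellia choice and 6.5 and 3.7 in sechellia no choice, against 46.8 and 37 in simulans choice and 19.4 and 33.2 in simulans no choice. With array 1 of choice left aside, the sechellia signals were below the simulans ones, and the log2 difference of the signals without the filter was -1.36 ± 1.03 (adjusted p = 0.48) with 8 arrays and -2.46 ± 0.56 (adjusted p = 0.014) with 7. Both species are at background for this gene, so no fold is given. Osi7 and Osi8, with Osi6 the members tied to octanoic acid survival, showed no such gap. Osi7 had 164.4 and 35 in sechellia choice and 33 and 27.7 in sechellia no choice, against 44.4 and 50.7 in simulans choice and 29.9 and 31.3 in simulans no choice. Osi8 had 98.4 and 14.6 in sechellia choice and 11.8 and 9.5 in sechellia no choice, against 12.6 and 22.7 in simulans choice and 11.6 and 18.9 in simulans no choice. Their species overlapped and neither was called: with 7 arrays the log2 differences of the signals were -0.23 ± 0.45 (adjusted p = 0.79) for Osi7 and -0.35 ± 0.55 (adjusted p = 0.74) for Osi8. Osi2, at 8.4 to 21.6 on the 3 sechellia arrays other than array 1 of choice, where it was 181, and at 7.5 to 12.7 on the simulans arrays, gave 0.21 ± 0.56 (adjusted p = 0.84) with 7 arrays. At these signals a difference between the species was not detectable, and its absence is not shown.

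**Figure D2:**
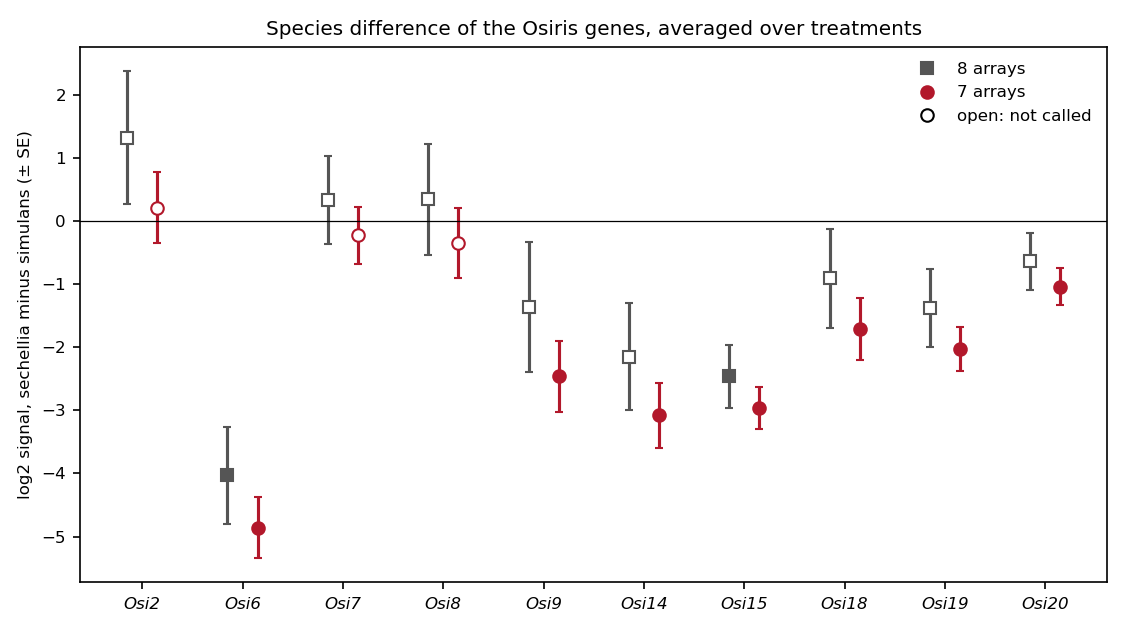
Log2 difference of signal, sechellia minus simulans averaged over treatments (y axis, ± SE from limma), for the 10 Osiris genes (x axis) with 8 arrays (squares) and with 7 (circles). Filled symbols were called at an adjusted p below 0.05: Osi6 and Osi15 with 8 arrays, and these with Osi9, Osi14, Osi18, Osi19 and Osi20 with 7, Osi9 being at background on every array; Osi2, Osi7, Osi8 and Osi9 come from the fit without the dim filter.

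The percentile of a gene's signal among all 18769 probe sets of its own array does not change with any scaling that keeps the order of its signals. Osi6 stood at percentiles 6.1 to 31.2 on the 4 sechellia arrays, and at 11.1 on the array that stood apart, against 64.2 to 76.2 on the simulans arrays. For Osi15 the range was 23.4 to 41.1 in sechellia, against 65.7 to 72 in simulans, and for Osi14 it was 13.7 to 43.1 in sechellia, against 59.9 to 60.5 in simulans. Osi19 ran from 20.7 to 37.4 in sechellia, against 48.1 to 56.9 in simulans, and Osi20 from 32.4 to 45.6 in sechellia, against 53.9 to 56.9 in simulans. For these 5 genes all 4 sechellia percentiles lay below all 4 simulans ones, which held for 9.21% of all probe sets. For signals, every sechellia array was below every simulans array in 2 of the 10 genes with 8 arrays and in 7 with 7 arrays, against 7.69% and 11.9% of all probe sets. Those 7 include Osi9, at background on every array, and Osi18, above background on only 1 simulans array.

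**Figure D3:**
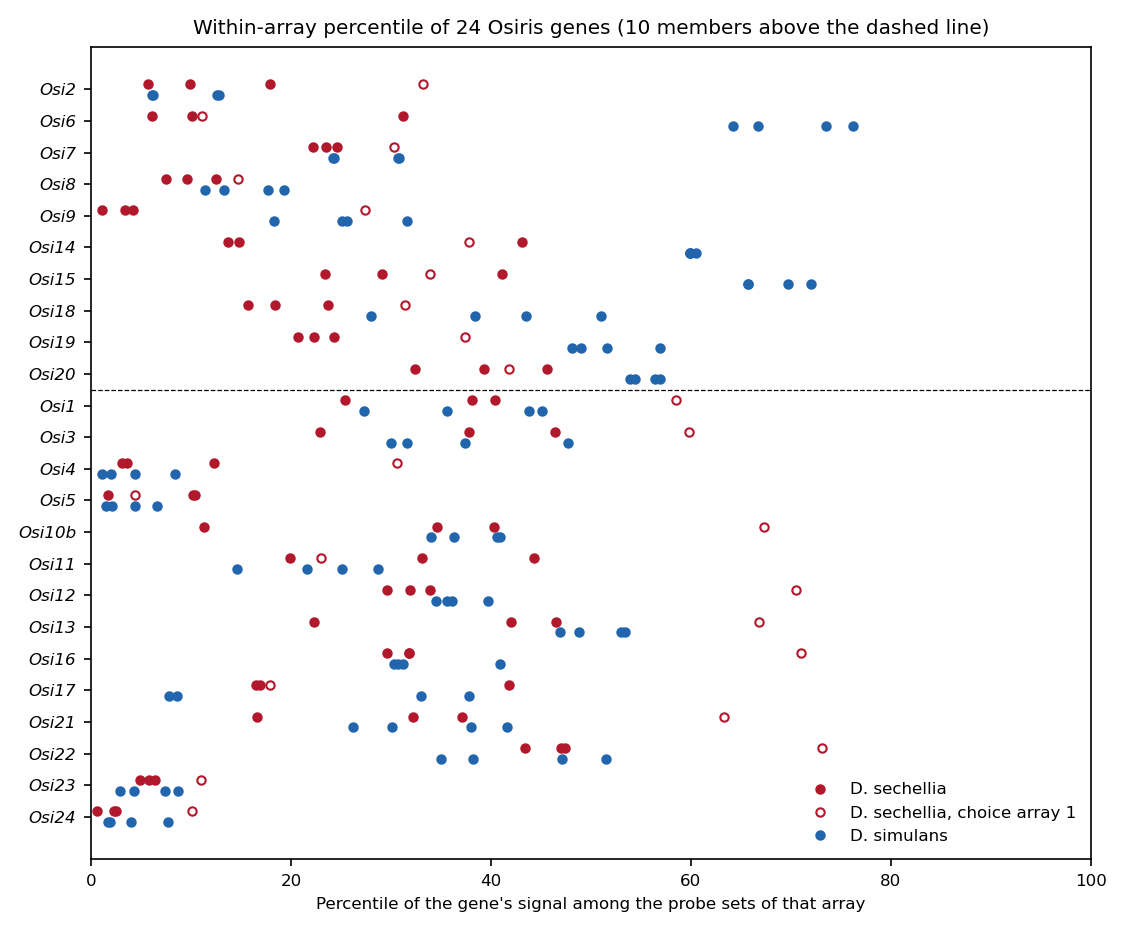
Percentile of the signal of 24 Osiris genes (y axis, the 10 described here above the dashed line) among the probe sets of the same array (x axis), with 1 point for each of 8 arrays, sechellia in red above simulans in blue. The sechellia points of Osi6, Osi14, Osi15, Osi19 and Osi20, with array 1 of choice as an open circle, all lie left of the simulans points, which no gene below the line shows.

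The other 14 Osiris genes on the array are Osi1, Osi3, Osi4, Osi5, Osi10b, Osi11, Osi12, Osi13, Osi16, Osi17, Osi21, Osi22, Osi23 and Osi24. Osi13 was above background on all 4 simulans arrays and Osi22 on 1, and the other 12 on none of them; on the sechellia arrays 2 of their 56 readings were above background. Limma called 0 of the 8 that were tested in the species difference averaged over treatments, with 8 arrays (0 with an unadjusted p below 0.05) and with 7 (1 below 0.05), at a median log2 of 0.60 and -0.30. Osi10b was the exception under a single treatment: with 7 arrays it was lower in sechellia under choice by log2 -2.51 ± 0.60 (adjusted p = 0.021), where the sechellia group is 1 array at a signal of 13.5, against 73.7 and 80.2 in simulans choice, and Osi10b was at background on all 8 arrays. Because the 10 genes were picked with such values known, the contrast between them and the other 14 is a description.

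Within each treatment, the species difference of the 10 members without the dim filter was positive in 3 and negative in 7 under choice with 8 arrays, negative in 10 there with 7, and positive in 1 and negative in 9 under no choice. These signs include those of Osi2, Osi7, Osi8 and Osi9, which were at background on every array, so no common direction is read from them. Under choice, limma called 0 of the 6 with 8 arrays (2 with an unadjusted p below 0.05), where 2.25% of all tested probe sets were lower. With 7 arrays it called 4, Osi6 (log2 -6.07 ± 0.74, adjusted p = 0.00081), Osi14 (-3.77 ± 0.80), Osi15 (-3.25 ± 0.51) and Osi19 (-2.0 ± 0.54), where 9.78% of probe sets were called lower. The sechellia choice group is then its array 2 alone, assumed to vary like the other groups. Over background the bounds under choice with 7 arrays were at least 9.53-fold lower in sechellia for Osi6, 7.33-fold for Osi15, 3.53-fold for Osi14 and 2.22-fold for Osi19. With array 1 of sechellia choice kept, they were only 2.71-fold for Osi6 and 2.09-fold for Osi15, and no bound above 1 was left for Osi14. Under no choice, array 1 of sechellia choice enters only through the shared estimate of spread and the dim filter. In that treatment limma called 0 of the 6 with 8 arrays (3 with an unadjusted p below 0.05, and 2.38% of probe sets lower) and the same 4 with 7 (13.7% lower). These were Osi6 (-3.64 ± 0.60, adjusted p = 0.0024), Osi14 (-2.40 ± 0.65), Osi15 (-2.67 ± 0.42) and Osi19 (-2.07 ± 0.44). The bounds under no choice were at least 2.48-fold lower in sechellia for Osi6, 2.51-fold for Osi15 and 1.63-fold for Osi14. As in the averaged comparison, the filter favoured members low in sechellia, so nothing is read from 4 of 6 against these shares. Without the filter, limma called 0 of the 10 members with 8 arrays in either treatment. With 7 arrays and no filter, not all of these 4 kept their call under choice.

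The choice of the acids changed no member past the test. In simulans, where the signals of Osi6 and Osi15 are above background, both choice arrays were above both no choice arrays for these 2 genes and for Osi14. Osi20, the other member above background on all 4 simulans arrays, did not show this. Over all 10 members 6 did, the others being Osi7, Osi9 and Osi18, against 23.4% of all probe sets. Osi7 and Osi9 were at background on every array, and Osi18 was above it on 1 simulans array. Choice minus no choice was only log2 0.08 for Osi14 and 0.25 for Osi19, and no response to choice is read from these counts. The log2 difference, choice minus no choice, was 0.91 ± 0.60 for Osi6 (adjusted p = 0.53), 0.51 ± 0.42 for Osi15 (adjusted p = 0.62), 1.01 ± 0.62 for Osi18 (adjusted p = 0.49) and 0.05 ± 0.37 for Osi20 (adjusted p = 0.96) with 7 arrays. Limma called 0 of the 6 tested members with 8 arrays and with 7, with no unadjusted p below 0.05 among them; 0.00761% and 0.274% of tested probe sets were called.

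In sechellia 39 of the 40 readings were at background, all but that of Osi20 on array 2 of choice. For the other members choice minus no choice thus compares signals at background there, and no direction is read for any member. The log2 values moved with array 1 of choice, for Osi6 from 0.13 with 8 arrays to -1.52 with 7 and for Osi9 from 2.73 to 0.53. Limma called 0 of the 6 tested members with 8 arrays and with 7, none with an unadjusted p below 0.05, where 0.0533% and 2.49% of probe sets were called. Left with array 1 in place of array 2 for sechellia choice, the fit called 5 of the 6, along with 66.0% of all tested probe sets. Averaged over species, the choice difference called 0 of 6 with 8 arrays and with 7 (no unadjusted p below 0.05; 0.0228% and 1.46% of probe sets called). The interaction, the choice difference in sechellia minus that in simulans, also called 0 of 6 (0.0152% and 2.79% of probe sets called). With 7 arrays 1 member had an unadjusted p below 0.05 there, Osi6, at log2 -2.42 ± 0.96 (adjusted p = 0.24), and with 8 arrays there was none.

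**Figure D4:**
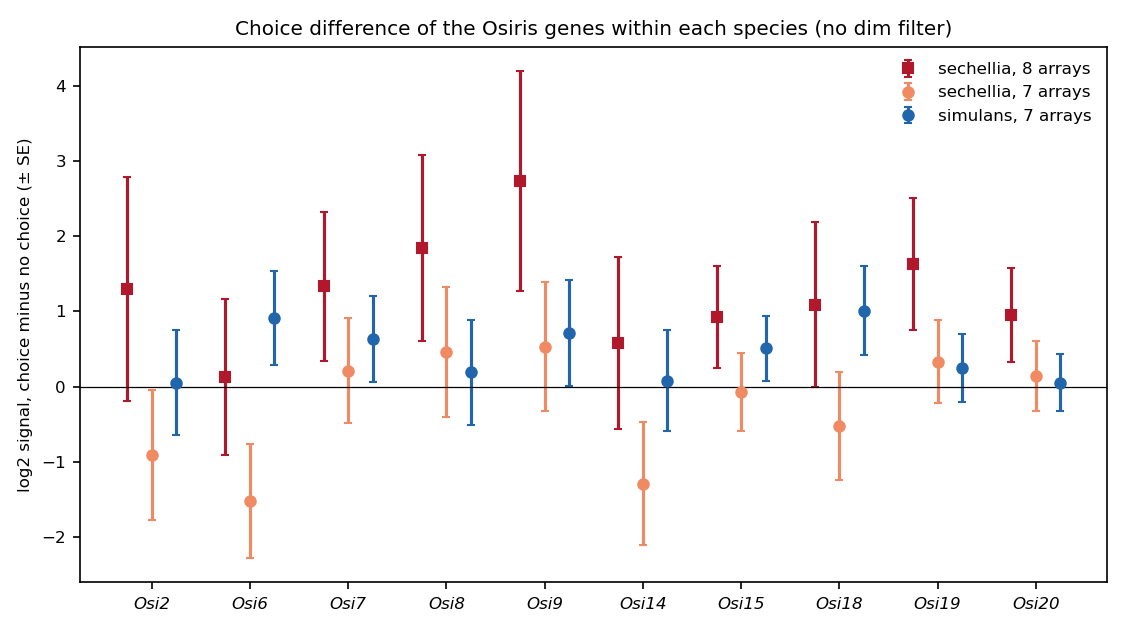
Log2 difference of signal, choice minus no choice (y axis, ± SE from limma without the dim filter), for the 10 Osiris genes (x axis) in sechellia with 8 arrays (red squares), in sechellia with 7 (orange circles) and in simulans from the fit with 7 (blue circles). The sechellia values, which compare signals at background, are all lower with 7 arrays than with 8, and the simulans values lie between 0.05 and 1.01.

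Genes of cuticle and apical matrix, the structures that Osiris-expressing epithelia make, showed no common direction. Of 31 such genes listed 27 were on the array and 20 were tested; 1 was higher and 1 lower in sechellia with 8 arrays, and 4 were higher and 2 lower with 7. The medians were 0.30 and 0.03, against 0.14 and 0.07 over all tested probe sets, of which 9.87% and 32.5% were called in either direction. Cda4, a chitin deacetylase gene, was lower by log2 -2.12 ± 0.22 (adjusted p = 0.0012) and dpy, which encodes a giant apical matrix protein, was higher by 1.10 ± 0.11 (adjusted p = 0.0011) with 8 arrays. Gasp, a chitin-binding protein gene of the trachea, was lower with 7 arrays, at -1.81 ± 0.28 (adjusted p = 0.0012), and Cht2, a chitinase gene, higher, at 1.01 ± 0.22 (adjusted p = 0.0069).

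Gasp is also the only gene called, with 7 arrays, among the 4 tested of 5 tracheal and epidermal markers on the array. The summed signal of those 5 was 554.9 to 803.5 on the 3 sechellia arrays other than array 1 of choice, where it was 920, against 688.1 to 995.2 on the simulans arrays, so that the species overlapped. Of them, 2 were above background on all 3 of these sechellia arrays and 3 on all 4 simulans arrays, and 2 (btl and verm) on none of the 7. Of 6 markers listed for larval or pupal epidermis and other stages 2 were above background in either species. The summed signal of the 6 was 935.1 to 1231 on these sechellia arrays, against 871.8 to 1204 on the simulans arrays. Of the 3 tested, 0 were called with 8 arrays. With 7, the log2 difference was -0.35 ± 0.11 for Acp65Aa, 0.28 ± 0.11 for Pcp and 1.73 ± 0.61 for Edg91. Some other marker lists held genes called between the species too, where 9.87% of all tested probe sets were called with 8 arrays and 32.5% with 7. Of 9 tested male reproductive markers 0 were called in either fit. Arr1 and Arr2, arrestin genes of photoreceptors, were higher in sechellia with 8 arrays and with 7, among 4 tested eye and head markers with medians of 1.39 and 1.19. Of 7 muscle markers 1 was higher and 1 lower with 8 arrays, and 3 were higher and 1 lower with 7. Of the female fat body and ovary markers, 8 of 14 tested were lower in sechellia with 8 arrays and 10 lower and 1 higher with 7, with medians of -1.25 and -0.98, and their summed signal was 121200 to 192200 on these sechellia arrays and 94000 on array 1 of choice, against 204700 to 244900 on the simulans arrays. The part of any of these cell types in the Osiris differences was not tested.

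Among the 10 genes, the log2 signal of Osi6 over the 7 arrays was most like that of Osi15 (Pearson r = 0.981), then Osi9 (0.937), Osi20 (0.928), Osi19 (0.915), Osi18 (0.855) and Osi14 (0.794), and least like that of Osi7 (0.542), Osi8 (0.492) and Osi2 (-0.121). Of all tested probe sets with 1 symbol, the most like Osi6 were RhoGAP71E, CG32109, CG13659, NdufV3 and CG31041, at r = 0.989 to 0.995, and the most like Osi15 were sowah, Gcna, BomS5, Tbce and c11.1, at r = 0.991 to 0.993. The 7 arrays fall into 2 species, so these correlations largely restate the species difference and are given as a description. Of these 10, CG31041 and CG13659 had low sechellia signals like Osi6: CG31041 stood at 13.5 to 64.2 on 3 sechellia arrays, against 615.6 to 786 on the simulans arrays, and CG13659 at 14.3 to 44.1, against 176.8 to 220.3.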

How the data were processed

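The deposited values are linear probe-set signals, an intensity, made by the authors with MAS5 per the submitters' processing notes; version, settings and detection calls are not given in the sources used here. With 2% trimmed at each end, mean signal was 497.3 to 498.9 on the 8 arrays, so the deposited intensities were taken to log2 unscaled. Of 18952 probe sets, 183 controls and the dimmest 30% by mean log2 signal were left out, leaving 13138. The 24 Bacillus controls are the dap, lys, phe and thr probe sets.

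A mean per group was estimated with lmFit of limma 3.58.1 under R 4.3.3 and moderated by eBayes with an intensity trend (4 residual degrees of freedom with 8 arrays, 3 with 7), without a block, and p-values adjusted by Benjamini-Hochberg over all tested probe sets. The fit without array 1 of sechellia choice kept the same probe sets. Every member was named, other Osiris and cuticle genes only where called, and the 5 genes most like Osi6 and Osi15. The members and lists were chosen with earlier results of these data known. None of the 24 Osiris genes was matched in the D. sechellia gene table, so no position or sequence is given. The fit was tested on simulated data with independent noise of equal spread on all arrays. These held no array that stood apart, so that test does not cover array 1 of sechellia choice.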

Additional observations from a re-analysis of the deposited data

How the results depend on the processing

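The number of members called between the species, averaged over treatments, was 2 as reported with 8 arrays. Called probe sets, in either direction here and in the shares below, were 9.87% of those tested. The count was 1 (14.6%) when the dimmer 50% of probe sets were left out, with only 1 member then tested, 1 (6.4%) without an intensity trend, 4 (3.19%) after median centring and 6 (16.2%) after cyclic loess. It was between 0 and 6 when an array was left out, 6 (32.5%) without array 1 of sechellia choice. Over these settings 419 to 8160 probe sets were called, against 1297. The tested members kept a negative sign in the settings run, which the filter favoured; among the dim ones, Osi7 was 0.33 with 8 arrays and -0.23 with 7, and Osi8 0.34 and -0.35. Over these settings, those with an array left out included, Osi6 ranged from -4.86 to -2.51, Osi15 from -2.96 to -1.78 and Osi18 from -1.71 to -0.10. The largest sizes came without array 1 of sechellia choice. With all 8 arrays kept they were -4.53 for Osi6, -2.9 for Osi15 and -1.56 for Osi18. The smallest sizes came with log2(signal + 50) for Osi6 and Osi15 and without array 2 of sechellia choice for Osi18. The median over all tested probe sets was -0.30 after median centring and 0.14 as deposited. With 7 arrays, 7 settings were chosen after seeing the data. Over these and the fit as reported, Osi6 ranged from -4.97 to -4.53, Osi15 from -3.07 to -2.86 and Osi14 from -3.29 to -2.91. Osi19 ranged from -2.17 to -2.01, Osi18 from -1.87 to -1.63 and Osi20 from -1.15 to -1.01. Sechellia choice is 1 array in these fits, and Osi20 was not called there without a trend. Under no choice alone 0 members were called as reported, 2 after quantile normalization (4.0% of probe sets), 1 after median centring (0.891%), 3 after loess (8.93%), 1 with log2(signal + 50) (4.12%), 4 with only the groups compared (26.5%) and 0 to 4 with an array left out, 4 without array 1 of sechellia choice (28.2%) and 4 without its array 2 (28.1%). Under choice alone 0 became 2 after quantile normalization (4.51%), after median centring (0.784%) and after loess (9.0%), 1 with log2(signal + 50) (4.16%) and 0 to 4 with an array left out, 4 without array 1 of sechellia choice (19.4%). For choice averaged over species, for choice in sechellia and for the interaction, leaving out an array gave 0 to 5, 0 to 5 and 0 to 2 members, the higher value each time without array 2 of sechellia choice, where 55.6%, 66.0% and 55.6% of all tested probe sets were called as well. The cause of these changes was not tested. Same-numbered arrays of different groups did not deviate together (r = -0.123 to 0.0523), and the replicate block left 2 members called, with 1047 probe sets called. Signals at background on every array limit Osi2, Osi7, Osi8 and Osi9: no change of level was measurable for them, the call of Osi9 with 7 arrays included.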
